A study of Homo sapiens with 24 samples.

Results

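The genes described here were the 10 regulators of the actin cytoskeleton FSCN1, LIMK1, LIMK2, CFL1, CFL2 and CDC42EP1 to CDC42EP5, out of 58676 genes in the deposited count table. They were chosen by symbol because FSCN1, LIMK2 and CDC42EP2 had responded to the drug in these libraries, and the other 7 were listed with them as actin regulators. The values that chose those 3 genes are therefore given below as a description, without a test. RNA came from HSJD-DIPG-007, a cell line grown from a diffuse midline glioma, a childhood brainstem tumour. All 24 libraries carry the labelled genotype H3F3A K27M, ACVR1 R206H and PIK3CA MIS. Spheroids received vehicle or LLY-283, an inhibitor of the arginine methyltransferase PRMT5, at the GI40, the concentration that lowers growth by that percentage. Each arm had 3 libraries at days 0 and 5, 2 at day 7 and 1 at each of days 1, 2, 3 and 10, and a further dose in fresh medium followed after day 5. The study calls the libraries of a group technical repeats of this 1 line. The SDs and p-values at days 0 and 5 therefore measure the spread between those repeats. Days 1, 2, 3 and 10 had 1 library an arm, so SEs and p-values over them measure how the arm difference varied between days.

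Fascin (FSCN1) packs actin filaments into the tight parallel bundles of filopodia and invasive protrusions. The cofilins CFL1 and CFL2 sever and disassemble filaments, and the LIM kinases LIMK1 and LIMK2 switch cofilins off by phosphorylating them, downstream of the kinases PAK and ROCK. The CDC42EP proteins, also called Borg proteins, bind the active GTPase CDC42 and organise septin filaments. Together these proteins set how fast actin turns over at the edge of a moving cell, and glioma cells extend such protrusions as they invade brain tissue.

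Promoter sequence is shown for LIMK2 and CDC42EP2, members that were lower with LLY-283 at day 5, because each lies in a setting that bears on its count. LIMK2 has 2 listed starts whose reads are summed in its count, and CDC42EP2 starts inside the span of a longer gene. Several listed starts do not set LIMK2 apart, as LIMK1 and CFL2 also have 2 and CDC42EP3 has 3. The runs are the 250 bases before the start from RefSeq (GRCh38.p14), 5′ to 3′ on the strand of the gene. Capitals mark GC boxes (GGGCGG) and CCAAT boxes (CCAAT) on either strand. The upstream LIMK2 window runs past 31212239, where the GENCODE annotation starts the gene, so its last bases lie inside that span.
LIMK2 upstream start, chr22:31212048-31212297, plus strand: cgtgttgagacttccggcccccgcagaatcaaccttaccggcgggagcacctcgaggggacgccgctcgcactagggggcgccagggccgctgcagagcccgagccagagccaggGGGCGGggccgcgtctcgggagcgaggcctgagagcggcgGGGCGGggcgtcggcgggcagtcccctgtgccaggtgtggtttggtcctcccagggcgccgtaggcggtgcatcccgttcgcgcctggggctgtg
LIMK2 downstream start, chr22:31248134-31248383, plus strand: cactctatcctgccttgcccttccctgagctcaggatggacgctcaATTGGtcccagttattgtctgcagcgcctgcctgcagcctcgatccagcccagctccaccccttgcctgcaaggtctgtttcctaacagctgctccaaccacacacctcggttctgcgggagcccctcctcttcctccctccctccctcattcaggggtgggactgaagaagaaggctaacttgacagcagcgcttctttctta
CDC42EP2, chr11:65314616-65314865, plus strand: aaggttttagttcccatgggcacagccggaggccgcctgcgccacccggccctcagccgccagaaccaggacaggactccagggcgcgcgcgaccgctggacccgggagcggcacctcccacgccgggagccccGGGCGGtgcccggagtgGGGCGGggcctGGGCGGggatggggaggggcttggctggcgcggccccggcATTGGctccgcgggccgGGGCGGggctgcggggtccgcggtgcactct
The upstream LIMK2 window held 2 GC boxes and 74.4% G and C, whereas the downstream window held 1 CCAAT box and 58.0% G and C. The CDC42EP2 window held 4 GC boxes, 1 CCAAT box and 78.0% G and C. Of all 35116 promoter windows of this length, 42.639% held a GC box and 32.008% a CCAAT box, and the median G and C content was 58.0%. No window of the 3 held TATAAA (in 10.716% of all windows), the E-box CACGTG (6.345%), the AP-1 site TGACTCA (4.203%), the TEAD site GGAATG (11.889%) or a CArG box (1.159%). Of the 10 members 8 matched the promoter table.

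The libraries held 13835205 to 23190369 estimated counts (median 18688160.5), and levels are given as CPM, counts scaled to a common library total by TMM, a normalization on the bulk of the genes. Glioma precursor markers summed to between 4284 and 5081 CPM over the 24 libraries, with SOX10 alone of 10 near 0 (0 to 0.6025 CPM). Myeloid markers summed to at most 2.033 CPM and endothelial markers to at most 25.86 CPM. Repeats of a group differed by 1.65 to 3.79 in chi-square per degree of freedom at days 0 and 5. At day 7 the value was 11.2 between the vehicle repeats and 13.4 between the LLY-283 repeats. Day 7 is given by repeat and is left out of the comparisons below, apart from alternatives that name day 7 or all 24 libraries. It was left out because earlier results of these data had its repeat 2 libraries nearer the opposite arm, so that choice followed values already seen.

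Per kilobase of the canonical transcript, CFL1 stood far above the other members in the 6 libraries of day 0, at 580.4 ± 19.6 CPM per kb (SD, n = 6). LIMK1 followed at 36.15 ± 0.881, FSCN1 at 29.19 ± 1.51, CDC42EP3 at 23.34 ± 1.16, LIMK2 at 18.76 ± 0.698, CDC42EP1 at 13.76 ± 0.563 and CFL2 at 11.74 ± 0.605 CPM per kb. The least abundant were CDC42EP4 at 4.441 ± 0.267, CDC42EP5 at 1.82 ± 0.242 and CDC42EP2 at 1.517 ± 0.531 CPM per kb. The ranges of neighbours in this order did not overlap except for CDC42EP5 and CDC42EP2. CFL1, the non-muscle cofilin, thus exceeded the muscle-type CFL2 in every library, and LIMK1 exceeded LIMK2.

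**Figure D1:**
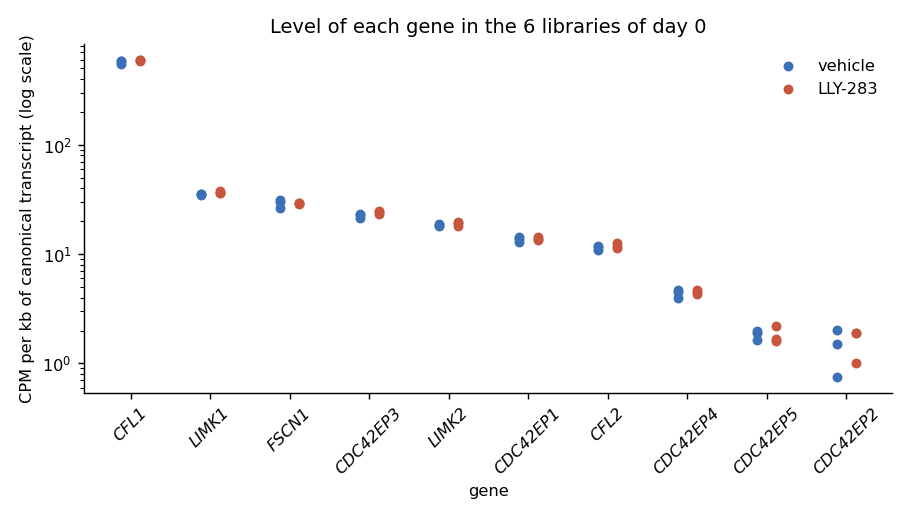
Level of each member in the 6 libraries of day 0, in CPM per kilobase of canonical transcript on a log axis, each point 1 library (blue vehicle, red LLY-283). CFL1 lies near 580.4 and the other 9 members at or below 37.59, with CDC42EP5 and CDC42EP2 overlapping at the bottom.

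At day 5 FSCN1, LIMK2 and CDC42EP2 were lower in every LLY-283 library than in any vehicle library. FSCN1 was at 104.5, 100.6 and 115.5 CPM in the vehicle libraries and at 71.04, 70.47 and 67.83 CPM in the LLY-283 libraries (log2 fold change −0.59, SE 0.0468). LIMK2 was at 61.25, 61.24 and 60.13 CPM with vehicle and at 44.85, 42.86 and 41.69 CPM in the treated libraries (log2 fold change −0.47, SE 0.0486). The genes lie on chromosome 7 of GRCh38 at 5592816 to 5606655 (FSCN1), on chromosome 22 at 31212239 to 31280080 (LIMK2) and on chromosome 11 at 65314866 to 65322417 (CDC42EP2), all protein coding on the plus strand. The LIMK2 repeats were tight, with SDs of 0.644 and 1.6 CPM around means that lay 60.87 against 43.13 CPM. CDC42EP2 was at 3.541, 3.614 and 5.762 CPM with vehicle and at 0.9915, 1.052 and 1.899 CPM in the treated libraries (log2 fold change −1.66, SE 0.264). These CDC42EP2 levels rest on 55 to 78 counts a vehicle library and 17 to 38 counts an LLY-283 library, so its fold is the least precise of the 3. Fold changes come from fits scaled within their own libraries and can differ slightly from the ratio of the CPM means.

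The other members moved less at day 5. CFL1 averaged 717.4 ± 30.8 CPM in the vehicle arm and 633.1 ± 25.6 CPM in the treated arm (SD, n = 3), which gave a log2 fold change of −0.16 (SE 0.0368). CFL2 was at 50.75 ± 1.11 and 43.09 ± 3.67 CPM (−0.21, SE 0.0556). Both cofilins were therefore lower, by a smaller step than the kinase LIMK2. CDC42EP1 averaged 43.02 ± 3.4 and 34.38 ± 0.89 CPM (−0.30, SE 0.06), and CDC42EP3 at 91.02 ± 0.909 and 81.04 ± 1.48 CPM (−0.14, SE 0.0412). LIMK1 was at 117 ± 4.81 and 120.8 ± 2.04 CPM with overlapping libraries (0.07, SE 0.0392). CDC42EP4 (20.96 ± 0.455 and 22.74 ± 0.201 CPM, log2 fold change 0.14, SE 0.0688) and CDC42EP5 (4.537 ± 0.19 and 5.587 ± 0.697 CPM, 0.32, SE 0.151) had LLY-283 libraries above the vehicle libraries. The LIM kinases and the CDC42EP genes were each split in this way between members that were lower and members that were not.

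In edgeR (quasi-likelihood test, p-values adjusted over all genes by Benjamini-Hochberg), 7 of the 10 members had an adjusted p under 0.01 at day 5, all of them lower. The background was 26.1% of the 16491 genes tested, 12% higher and 14.1% lower. The libraries of the arms did not overlap for 9 of 10 members, beside 46.3% of all genes. The median log2 fold change was −0.1845 over the members and 0.0206 over all genes. The lead members were chosen for their response to the drug in these libraries, so nothing is read from these counts. The 3 members outside the 7 were LIMK1, CDC42EP4 and CDC42EP5. When the 24 libraries were fitted together, day 7 included and with 1 spread for every group, 3 members kept the call. These were LIMK2, CDC42EP1 and CDC42EP2, and FSCN1 did not keep it. The FSCN1 spread there includes the LLY-283 repeats of day 7, at 60.86 and 113.1 CPM. That fit called 2036 of 20876 genes. DESeq2 kept 5, without CFL2 and CDC42EP3, and called 3300 of 13610 genes.

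**Figure D2:**
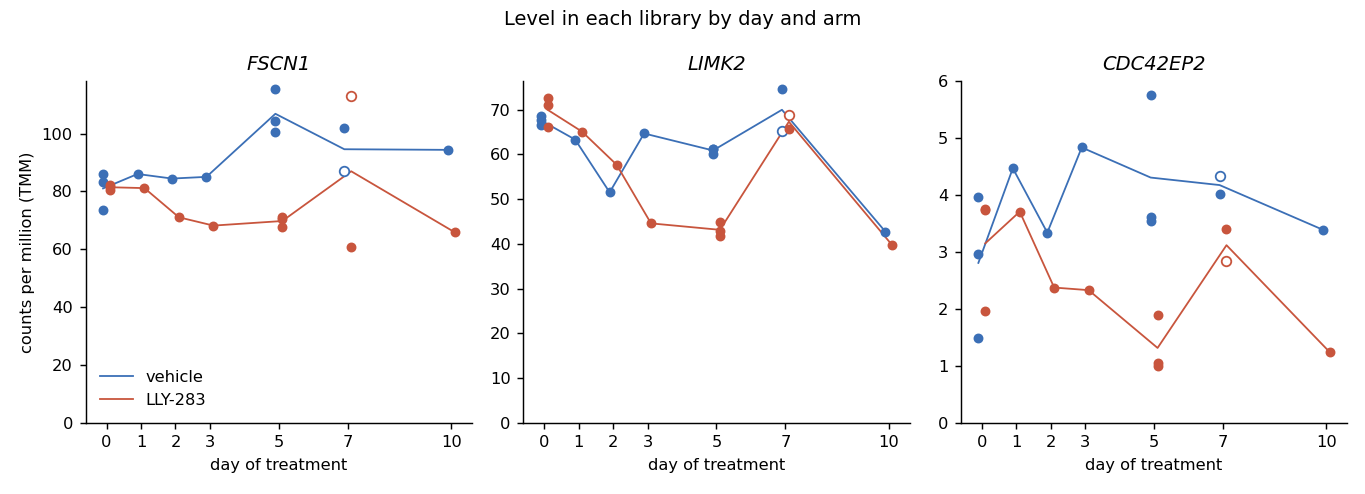
CPM of FSCN1, LIMK2 and CDC42EP2 in each of the 24 libraries against the day of treatment (blue vehicle, red LLY-283). Points are libraries, lines join the means of an arm by day, and open points are repeat 2 of day 7, where the LLY-283 library had FSCN1 at 113.1 CPM and the vehicle library at 87.11 CPM.

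Day 0 stands for 0 days of treatment, so it compares the arms before the drug could act. At day 0 no member had an adjusted p under 0.01 (0 of 10 in edgeR, beside 0.0169% of 17780 genes), and DESeq2 called 0 as well. CDC42EP3, with an unadjusted p of 0.037, was the 1 member under 0.05, where 5.69% of all genes lay (log2 fold change 0.08, SE 0.0365, adjusted p 0.86 in edgeR). FSCN1 was at 73.61, 83.37 and 86.18 CPM in the vehicle libraries and 81.63, 80.66 and 82.1 CPM in the LLY-283 libraries. Its log2 fold change of −0.01 had a 95% interval of −0.0974 to 0.0871. CDC42EP2 was at 2.968, 3.972 and 1.481 CPM in the vehicle arm and 1.965, 3.728 and 3.759 CPM in the LLY-283 arm. Its interval, −0.8198 to 1.1022, was wide, and a change within it was not detectable at these counts. LIMK2 averaged 67.62 ± 0.979 CPM in the vehicle arm and 69.97 ± 3.36 CPM in the LLY-283 arm (SD, n = 3).

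Days 1, 2, 3 and 10 had 1 library an arm each. The rule that chose FSCN1, LIMK2 and CDC42EP2 names no days, so their values on these days are given as a description, and the other 7 members with their test. FSCN1, the filament bundler, was lower with LLY-283 on 4 of 4 days. The vehicle library held 86.04 CPM and the treated library 81.16 CPM on day 1, against 84.46 and 71.07 CPM on day 2, 85.05 and 68.2 CPM on day 3 and 94.39 and 65.91 CPM on day 10. The lowest vehicle value of these days lay above the highest LLY-283 value. Over the 4 days, with the day as a block, its log2 fold change was −0.28 (SE 0.0658).

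CDC42EP2 was also lower with LLY-283 on 4 of 4 days. With vehicle first, it held 4.468 and 3.707 CPM on day 1, 3.338 and 2.374 CPM on day 2, 4.834 and 2.329 CPM on day 3 and 3.388 and 1.238 CPM on day 10. Its log2 fold change was −0.76 (SE 0.203). The sum of CDC42EP2 and the readthrough gene that shares its exons, described below, was higher with LLY-283 on day 1 (21.9 and 23.16 CPM, vehicle first) and day 10 (15.7 and 18.11 CPM) and lower on day 2 (23.89 and 17.86 CPM) and day 3 (21.05 and 15.91 CPM). The sum, which holds all counts of the readthrough gene, thus went the other way from CDC42EP2 on 2 of the 4 days. CDC42EP1, a relative of CDC42EP2 with a higher level, was lower on 4 of 4 days as well, by a smaller step (log2 fold change −0.16, SE 0.0588, unadjusted p 0.0148, adjusted p 0.18 in edgeR). CFL2 had the same sign on all 4 days (−0.12, adjusted p 0.31 in edgeR). The share of all genes with 1 sign on 4 of 4 days, or without overlap as for FSCN1, was not counted. Nothing is read from these patterns for FSCN1, CDC42EP1, CDC42EP2 or CFL2.

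In all, 0 of 10 members passed an adjusted p of 0.01 over these days, beside 0.0176% of 17042 genes (edgeR), and DESeq2 called 0 of the 6 members it gave an adjusted p. At an unadjusted p under 0.05 there were 3 members, FSCN1, CDC42EP1 and CDC42EP2, beside 17.6% of all genes. As FSCN1 and CDC42EP2 were chosen for their response, nothing is read from that count. Without the filter on low counts these 2 genes were called in edgeR, beside 564 of 39350 genes. Nothing is read from those calls either. For CDC42EP1 the adjusted p was 0.29 with both repeats of day 7 added and 0.036 with repeat 1 alone (edgeR), and 0 of 10 members were called either way. LIMK1 (log2 fold change 0.00, 95% interval −0.1027 to 0.11), CDC42EP3 (0.03, −0.1127 to 0.1669), CDC42EP4 (−0.10, −0.2769 to 0.0727) and CDC42EP5 (−0.04, −0.4285 to 0.3486) had intervals that spanned 0. So did CFL1 at −0.09 (−0.1971 to 0.0129).

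LIMK2, also chosen for its response to the drug, did not keep 1 direction. With vehicle first, it held 63.3 and 65.08 CPM on day 1, 51.51 and 57.7 CPM on day 2, 64.68 and 44.58 CPM on day 3 and 42.73 and 39.69 CPM on day 10. The LLY-283 library was above vehicle at days 1 and 2 and below it at days 3 and 10, by most at day 3. In vehicle alone LIMK2 ranged from 42.73 CPM at day 10 to 74.65 CPM at day 7 repeat 1. Its relative LIMK1, which acts on the same cofilins, was the steadiest member over all 24 libraries, with a highest level 1.32 times its lowest. That ratio was 5.81 for CDC42EP2, 4.3 for CDC42EP5, 1.9 for FSCN1 and 1.88 for LIMK2.

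**Figure D3:**
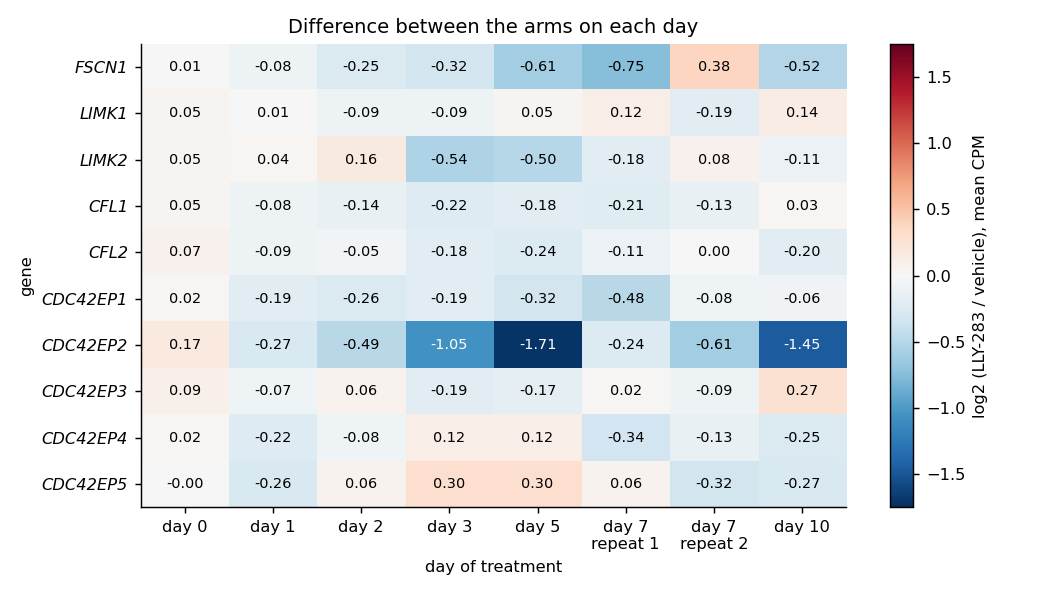
Difference between the arms for each member (rows) and day (columns), as log2 of mean LLY-283 CPM over mean vehicle CPM, with the repeats of day 7 apart; blue is lower with LLY-283 and red higher. FSCN1 goes from 0.01 at day 0 to −0.61 at day 5, CDC42EP2 reaches −1.71 at day 5, and LIMK2 is near or above 0 until day 2.

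At day 7 the repeats disagreed about several members, FSCN1 and LIMK2 among them. FSCN1 was at 102.1 CPM with vehicle and 60.86 CPM treated in repeat 1, and at 87.11 and 113.1 CPM in repeat 2. LIMK2 was at 74.65 and 65.73 CPM in repeat 1, vehicle first, and at 65.29 and 68.87 CPM in repeat 2. Taken by repeat number, the order of the arms was turned for FSCN1 and LIMK2. It was also turned for LIMK1, CFL2, CDC42EP3 and CDC42EP5, while CFL1 and CDC42EP4 were lower with LLY-283 in both repeats. CDC42EP2 (4.016 and 3.396 CPM in repeat 1, 4.332 and 2.841 CPM in repeat 2) and CDC42EP1 (42.8 and 30.67 CPM, then 43.58 and 41.22 CPM) were lower with LLY-283 in both. The sum of CDC42EP2 and the readthrough gene was lower with LLY-283 in repeat 1 (30.92 and 23.01 CPM, vehicle first). In repeat 2 that sum was higher with LLY-283 (21.03 and 29.68 CPM). Whether repeat numbers pair the arms at day 7 was not tested. Whether the libraries of repeat 2 carry the label of their own arm was not tested either.

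The count of CDC42EP2 cannot be fully separated from that of a neighbour. In the annotation 1874 bases, 86.599% of its exon bases, also belong to ENSG00000285816 (chromosome 11 of GRCh38, 65261928 to 65326543), a readthrough gene on the same strand that joins POLA2, a subunit of DNA polymerase alpha, to CDC42EP2. The readthrough gene carried 12.31 to 31.68 CPM against 0.9915 to 5.762 CPM for CDC42EP2. Reads that fit transcripts of both genes are divided between them by estimation. Summed over both genes, the level at day 5 was 28.76, 27.53 and 22.75 CPM with vehicle and 16.33, 18.35 and 14.7 CPM with LLY-283, still without overlap. CDC42EP2 took 16.9 ± 7.29% of that sum with vehicle and 8.24 ± 4.06% with LLY-283 (SD, n = 3).

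With the counts of the readthrough gene added to CDC42EP2, an alternative chosen after the values were seen, the day 5 log2 fold change shrank from −1.66 to −0.66. Over days 1, 2, 3 and 10 it shrank from −0.76 to −0.13. The readthrough gene itself had log2 fold changes of −0.53 (SE 0.183) at day 5 and −0.01 (SE 0.128) over the other days. It was not called at day 5 (adjusted p 0.075 in edgeR). Its libraries overlapped there, with vehicle repeat 3 at 16.99 CPM and LLY-283 repeat 2 at 17.3 CPM. POLA2, named after its values were seen, stood at −0.48 (SE 0.0523) at day 5. Of the exon bases of the readthrough gene, 44.03% are shared with CDC42EP2 and 47.27% with POLA2. The added counts can therefore include reads from the POLA2 part, and the sum does not give the level of CDC42EP2 alone. How the size and direction of the CDC42EP2 decrease depend on the division of shared reads was not tested.

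**Figure D4:**
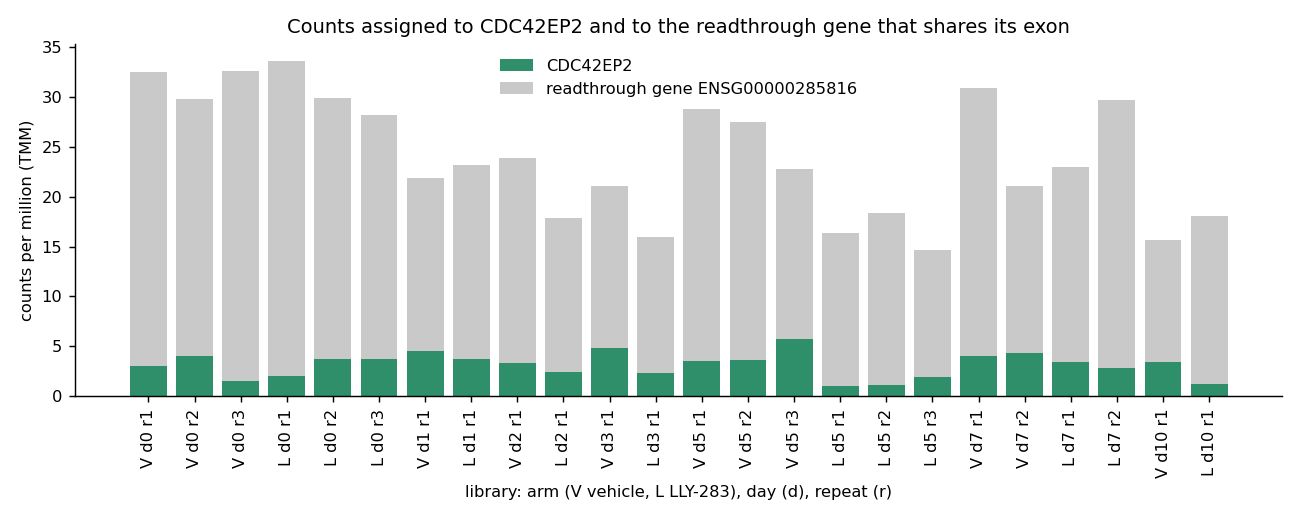
CPM assigned to CDC42EP2 (green) and, stacked on it, to the readthrough gene ENSG00000285816 (grey) in each of the 24 libraries. CDC42EP2 is the smaller share in every bar, at most 5.762 CPM. At day 5 it is lower in every LLY-283 library than in any vehicle library, while the readthrough parts of the arms overlap.

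Other overlaps were smaller. CFL1 shares 12.941% of its exon bases with MUS81 and 6.087% with SNX32 on the other strand, and CDC42EP3 shares 2.358% with CDC42EP3-AS1. Pseudogenes of CFL1 reached at most 18 counts in a library, against at least 8047 for CFL1. Whether the counting used strand is not given in the sources used here.

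Members also differed between days in the vehicle arm alone. Vehicle at day 5 was compared with vehicle at day 0, 3 libraries each, and 6 of 10 members had an adjusted p under 0.01 in edgeR, 4 higher and 2 lower. The background was 38.9% of 17106 genes, 22.2% higher and 16.7% lower, and groups did not overlap for 57.2% of genes. The members' median log2 fold change was 0.2024, beside −0.0152 over all genes. The comparison shares its vehicle day 5 libraries with the drug comparison, so the values below are set side by side without relating them.

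CDC42EP5, a short CDC42EP protein, rose most in vehicle. It went from 1.761, 1.453 and 1.686 CPM at day 0 to 4.348, 4.534 and 4.728 CPM at day 5 (log2 fold change 1.45, SE 0.204, adjusted p 8.6e-07 in edgeR). CDC42EP4 rose from 14.59, 12.4 and 13.95 CPM to 21.24, 20.44 and 21.2 CPM (0.60, SE 0.081, adjusted p 4.4e-07 in edgeR). CDC42EP1 rose from 27.82, 29.41 and 30.75 CPM to 41.43, 46.92 and 40.7 CPM (0.54, SE 0.0617, adjusted p 2.9e-08 in edgeR). The 3 genes had every day 5 library above every day 0 library. CDC42EP3 fell from 110, 116 and 119.3 CPM to 92, 90.88 and 90.2 CPM (log2 fold change −0.35, SE 0.04, adjusted p 2.3e-08 in edgeR), so the CDC42EP genes went in opposite directions over the same days.

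FSCN1 averaged 81.05 ± 6.6 CPM in the day 0 vehicle libraries and 106.9 ± 7.7 CPM at day 5 (log2 fold change 0.38, SE 0.0582). In the treated arm it averaged 81.46 ± 0.735 CPM at day 0 and 69.78 ± 1.71 CPM at day 5 (SD, n = 3). From nearly the same mean at day 0, FSCN1 was higher at day 5 in the vehicle arm and lower in the treated arm. LIMK2 was at 67.62 ± 0.979 and 60.87 ± 0.644 CPM in vehicle (log2 fold change −0.17, SE 0.0441), and CDC42EP2 at 2.807 ± 1.25 and 4.306 ± 1.26 CPM (0.58, SE 0.362). With all counts of the readthrough gene added to CDC42EP2, the log2 fold change was −0.27. LIMK1 (−0.04, 95% interval −0.1215 to 0.0416), CFL1 (0.00, −0.0785 to 0.0806) and CFL2 (0.02, −0.079 to 0.1259) did not pass the test.

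**Figure D5:**
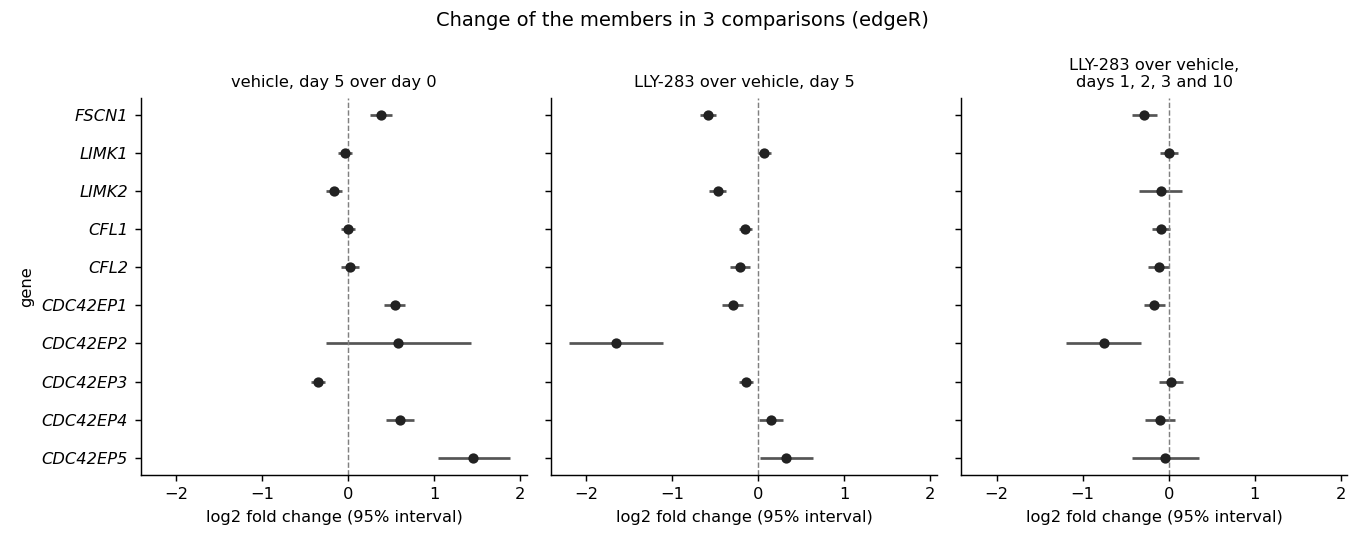
Log2 fold change of each member (rows) with its 95% interval in 3 comparisons, vehicle day 5 over day 0, LLY-283 over vehicle at day 5, and LLY-283 over vehicle across days 1, 2, 3 and 10. CDC42EP5 leads the culture panel at 1.45, and LIMK1, CFL1 and CFL2 lie near 0 there. CDC42EP2 is lowest in both drug panels at −1.66 and −0.76. The intervals of FSCN1, LIMK2 and CDC42EP2, chosen for their response, are a description and not a test.

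Across the 24 libraries, log2 CPM of LIMK2 went with that of both cofilins (Pearson's r 0.836 with CFL2 and 0.807 with CFL1, and 0.852 and 0.862 in the 20 libraries outside day 7). CDC42EP4 and CDC42EP5 went together (0.852, and 0.866 outside day 7), and CDC42EP3 went against CDC42EP4 (−0.796 and −0.836). FSCN1 was closest among the members to CFL2 over 24 libraries (0.664) and to CDC42EP2 outside day 7 (0.675, beside 0.667 for CFL2). Among 20875 other genes the most similar to FSCN1 were ACSL4 (0.928), PCNP (0.926) and MTHFD2 (0.915), to LIMK2 KCTD5 (0.935), PDSS1 (0.929) and MTMR2 (0.927), and to CDC42EP2 SFXN5 (0.782), ZNF416 (0.741) and GATB (0.733). The libraries share arms, days and technical source, so these are descriptions of 24 libraries and not independent points.

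The other genes of the pathway were followed in 6 lists of 90 genes. The lists were chosen with earlier results of these data known, so nothing is read from the shares called in any comparison. At day 5, 38 of the 78 tested genes (48.7%, beside 26.1% of all genes) were called with LLY-283, 9 higher and 29 lower (adjusted p under 0.01 in edgeR), with a median log2 fold change of −0.0857 beside 0.0206 over all genes. Of actin nucleation and elongation genes 1 rose and 10 fell of 24 tested, among them ARPC1B of the Arp2/3 complex (37.67 ± 1.38 CPM in vehicle, 25.4 ± 0.826 CPM treated, log2 fold change −0.54, adjusted p 5.7e-08 in edgeR). The formin FMNL2 was the gene that rose (0.29, adjusted p 5.3e-06 in edgeR). Of actins and monomer binding proteins 2 rose and 6 fell of 8 tested. TMSB4X, which sequesters actin monomers, fell by 0.27 on the log2 scale (adjusted p 5.7e-07 in edgeR). ACTA2, smooth muscle actin, rose from 57.73 ± 2.68 to 92.25 ± 7.65 CPM (0.70, adjusted p 4.8e-08 in edgeR). DESeq2 called 31 of the 74 list genes it gave an adjusted p at day 5, beside 3300 of 13610 genes.

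Genes nearest to the members by role were called in both directions at day 5, where 12% of all genes were higher and 14.1% lower. Here too nothing is read from the counts. Of 11 bundling and crosslinking genes besides fascin 1 rose and 3 fell, among them FLNA (−0.27, adjusted p 1.2e-06 in edgeR) and MARCKSL1 (−0.17, adjusted p 0.00019). Of 10 kinases acting on LIM kinases or cofilin 1 rose, PAK3 (0.51, adjusted p 3.7e-05 in edgeR), and 3 fell, among them ROCK2 (−0.19, adjusted p 0.00031). Of 13 partners in the cofilin cycle 1 rose and 4 fell, including WDR1, which speeds cofilin's disassembly of filaments (−0.15, adjusted p 0.002 in edgeR), and CORO1A (−0.68, adjusted p 0.0015). Of 12 septins 3 rose and 3 fell, SEPTIN8 rising by 0.29 (adjusted p 4.9e-06 in edgeR) and SEPTIN10 falling by 0.35 on the log2 scale (adjusted p 7.9e-07). At day 0 edgeR and DESeq2 each called 0 of 79 genes of the lists, and 4 had an unadjusted edgeR p under 0.05 (5.69% of all genes did). Over days 1, 2, 3 and 10 edgeR called 0 of 80 and DESeq2 0 of the 60 it gave an adjusted p, while 16 had an unadjusted edgeR p under 0.05, beside 17.6% of all genes.

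In vehicle culture from day 0 to day 5, 43 of 79 tested genes of the lists changed (54.4%, beside 38.9% of all genes), 38 higher and 5 lower, with a median log2 fold change of 0.1635. Of 24 actin nucleation and elongation genes 15 rose and 0 fell, among them DIAPH3, a formin that lengthens filaments (0.59, adjusted p 1e-10 in edgeR). Of 12 septins 7 rose and 0 fell, with SEPTIN4 going from 26.42 ± 1.46 to 70.74 ± 3.52 CPM (1.41, adjusted p 5.8e-18 in edgeR) and SEPTIN10 from 49.05 ± 2.16 to 79.06 ± 0.593 CPM. Of 11 bundling and crosslinking genes 6 rose and 2 fell, with SWAP70 at 0.69 (adjusted p 5.5e-13 in edgeR). Of 13 partners in the cofilin cycle 4 rose and 2 fell. SSH1, a phosphatase that switches cofilin back on, fell (−0.27, adjusted p 2.3e-06 in edgeR), and CAP1 rose (0.25, adjusted p 2.7e-06 in edgeR).

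Markers of other cell types moved with the comparisons too. The 6 neuron markers summed to 103.2 to 172.2 CPM over all libraries, and at day 5 to 110, 114.1 and 112.4 CPM with vehicle and 157.1, 167.6 and 166.2 CPM with LLY-283, without overlap. SYT1 and GAD1 carried most of that sum, and the other 4, including RBFOX3 and SNAP25, stayed under 3 CPM in every library. The glioma precursor markers went the other way at day 5, with 5023, 4917 and 5028 CPM in vehicle and 4727, 4663 and 4674 CPM in treated libraries. Fibroblast markers moved with the day and in part with the arm. The 16 genes, 15 of them above 0 in every library, summed to 504.5 to 532.6 CPM in the 6 libraries of day 0, to 545.5, 559.3 and 727.9 CPM in the vehicle libraries of day 5 and to 738.9, 718.5 and 730.2 CPM in the LLY-283 libraries of day 5. The list includes ACTA2. The vehicle day 5 library with the highest sum, repeat 3, held FN1 at 60.43, COL1A1 at 53.85, COL1A2 at 36.86 and COL3A1 at 9.381 CPM, each the highest of the 24 libraries. In that library 7 of the 16 markers were at their highest, while POSTN (29.4 CPM), FBN1 (15.29 CPM) and ACTA2 (57.25 CPM) were below their medians over all libraries. The same library had the highest FSCN1 and CDC42EP2 of its group. Without it the day 5 log2 fold change was −0.54 for FSCN1 and −1.40 for CDC42EP2. In bulk RNA, fewer cells of a type and less RNA per cell cannot be told apart, and the part of these markers in the results was not tested.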

How the data were processed

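Poly(A) RNA of 24 libraries was sequenced with a directional kit, and the authors quantified transcripts with kallisto on hg38 per the labels. The deposited values are estimated counts per Ensembl gene, whole numbers that are not normalized. All count columns matched a sample by its description. The kallisto version and annotation are not given in the sources used here. Genes were named from GENCODE v44, which matched 58207 of 58676 identifiers. The members and gene lists were chosen with earlier results of these data known.

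Counts were scaled by TMM and tested with edgeR 4.0.16 (R 4.3.3) by the quasi-likelihood test with robust estimates, after filterByExpr within the libraries of each comparison, with Benjamini-Hochberg adjustment over all genes tested and a threshold of 0.01. Comparisons were LLY-283 against vehicle at day 5, at day 0, and over days 1, 2, 3 and 10 with the day as a block, and vehicle at day 5 against day 0. Correlations used log2 CPM with a prior count of 2. Total counts of 13835205 to 23190369 set the precision, and intervals are 95% intervals of the fits. DESeq2 1.42.0, other scalings and filters, a replicate block and each library left out were alternatives. The named genes were the 10 members and the 3 genes most correlated with FSCN1, LIMK2 and CDC42EP2. Genes of the lists were drawn from the 2 called genes of smallest p for each list in each comparison, not all of which are printed. The fit was tested on simulated data. Protein sequences were not used here, and 1 gene list is not reported here.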

Additional observations from a re-analysis of the deposited data

Results flagged for a closer look

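LIMK2 was flagged because its difference between the arms went opposite ways at early and late days. Its log2 ratio of LLY-283 over vehicle was above 0 at days 1 and 2 (mean 0.1018) and below 0 at days 3 and 10 (mean −0.3217), a difference of −0.4236 between the pairs of days. Each day has 1 library an arm, and the difference was not tested.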

How the results depend on the processing

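Of 596 values of a gene's change under an alternative, 534 kept their sign and their side of the threshold, 27 changed side and 35 changed sign, of which 1 was of a called value. Of 60 counts of members called, 43 equalled the reported count. At day 5 the number of members called was 5 in DESeq2, 5 with library size alone, 3 in the fit of all 24 libraries, 7 with a replicate block, and 5 to 7 with each library left out. CDC42EP3 was lost wherever 5 or fewer were called, with CFL1 or CFL2, and CFL2 alone was lost without LLY-283 repeat 3. Over days 1, 2, 3 and 10 it was 2 without the filter on low counts and 0 with any day left out. At day 0 it was 0 throughout, the replicate block included. In vehicle culture it was 6 with the replicate block, 5 to 6 with each library left out, with LIMK2 the call lost, and 4 in the fit of all 24 libraries, where LIMK2 and FSCN1 were lost. CDC42EP2 in vehicle culture was −0.2737 with the readthrough counts added. The members' median ratio of the arms at day 5 was 0.8658, and 0.8976 with library size alone. The cause of these changes was not tested.

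At days 0 and 5, same-numbered libraries deviated from their group means with a correlation of −0.05 to 0.012. No shared deviation by repeat number was thus seen on those days. Whether same-numbered libraries were cultured or processed together cannot be told from these values. Day 7 was not checked in this way. Over all genes, the day 5 count of 4304 became 2036 in the fit of all 24 libraries, the day 0 count of 3 became 56 without the filter, 6 with the replicate block and 0 to 17 with a library left out, and the count of 3 over the other days became 564 without the filter, 46 in DESeq2, 0 with both repeats of day 7 added and 103 with repeat 1 alone. CDC42EP2 and CDC42EP5, at 17 and 25 counts in their lowest libraries, are limited by depth.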
